A study of Mus musculus with 8 samples.

Results

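The Gimap genes encode GTPases of immunity-associated proteins, and the 8 genes Gimap1, Gimap3, Gimap4, Gimap5, Gimap6, Gimap7, Gimap8 and Gimap9 are described here in mouse macrophages with or without the mineralocorticoid receptor and with or without corticosterone. All probe sets that the platform annotation gives to these genes were taken, which were 11 probe sets of 45037 that are not controls, and 8 genes of 18193 on the array. The family was chosen because Gimap8 was much lower with the hormone in cells of both genotypes. The hormone differences of the Gimap genes below are therefore a description, and nothing is read from their p-values. The genotype differences were not used for that choice. The difference between the responses of Gimap8 is made of the hormone differences that were used, so it is also a description.

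Gimap proteins are small GTPases related to septins. They sit on membranes such as those of the endoplasmic reticulum, Golgi, lysosomes and mitochondria, and they are best known from lymphocytes, where several of them are needed for survival of mature T and B cells. Rats and mice that lack Gimap5 have few T cells. Glucocorticoids such as corticosterone act through the glucocorticoid receptor and the mineralocorticoid receptor, which recognise the same DNA element, and high glucocorticoid levels kill many immature and resting lymphocytes.

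The study had 4 groups of 2 arrays. Controls were male C57BL6/J mice labelled MR fl / fl, in which the receptor gene Nr3c2 is floxed, and knockouts carried the same floxed gene with LysM cre, so every array came from floxed mice. LysM cre is a recombinase expressed from the lysozyme gene Lyz2, which is active in macrophages and granulocytes, while cells that do not use that gene, such as lymphocytes, keep the floxed receptor gene. Macrophages were drawn from the peritoneum 4 days after 3% thioglycolate, kept by adherence, and left untreated or given 1 µM corticosterone for 24 h. The labels call the 2 arrays of a group biological replicates. Each sample pooled triplicate experiments, so the spread that p-values measure is that between pools and may be partly technical. The sources used here do not give the ages of the mice. The number of arrays limits the precision.

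Values are log2 expression levels of a probe set, and a difference of 1 is a doubling. The macrophage transcripts Csf1r, between 13.52 and 13.59, and Lyz2, between 13.58 and 13.78, were high on all 8 arrays. Nr3c2 lay between 5.11 and 5.82 on the knockout arrays. It was at 8.46 on control untreated replicate 2 and between 6.13 and 6.39 on the other control arrays. Control untreated replicate 2 stood apart: it correlated with the others at a median of 0.919, where the other 7 reached at least 0.994, and the Actb control sets read 2.18 log2 units higher at the 3′ than at the 5′ end, against at most 0.62 elsewhere, a gap that widens with broken RNA. Each result is therefore given with all 8 arrays and with the 7 arrays left without it, in which the control untreated group holds 1 array and borrows its spread from the rest.

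The 8 genes lie in a row on chromosome 6 with no other protein-coding gene between them in the RefSeq order, Gimap8 at one end and Gimap3 at the other. The sequences just before the starts of Gimap8, Gimap4 and Gimap3, the members with the largest hormone differences with 7 arrays, and of Gimap9, whose level hardly differed, are shown to let their promoters be compared. They are from RefSeq on build GRCm38.p6, read 5′ to 3′ on the strand of the gene and end where the first annotated transcript begins. For Gimap8 and Gimap9 that lies before the start on which their promoter windows in the table are placed, so these stretches are shorter than the windows searched below. Capitals mark AGAACA or its reverse TGTTCT, each an arm of the element that glucocorticoid and mineralocorticoid receptors bind.
Gimap8, chr6:48646984-48647185, plus strand: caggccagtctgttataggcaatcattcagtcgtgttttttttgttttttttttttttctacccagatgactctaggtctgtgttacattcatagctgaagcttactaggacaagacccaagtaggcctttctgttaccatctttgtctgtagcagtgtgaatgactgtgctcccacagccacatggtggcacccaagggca
Gimap4, chr6:48684328-48684577, plus strand: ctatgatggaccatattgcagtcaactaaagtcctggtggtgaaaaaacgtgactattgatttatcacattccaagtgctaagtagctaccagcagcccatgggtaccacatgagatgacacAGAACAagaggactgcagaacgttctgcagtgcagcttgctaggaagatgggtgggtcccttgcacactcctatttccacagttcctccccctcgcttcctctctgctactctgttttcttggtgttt
Gimap3, chr6:48770852-48771101, minus strand: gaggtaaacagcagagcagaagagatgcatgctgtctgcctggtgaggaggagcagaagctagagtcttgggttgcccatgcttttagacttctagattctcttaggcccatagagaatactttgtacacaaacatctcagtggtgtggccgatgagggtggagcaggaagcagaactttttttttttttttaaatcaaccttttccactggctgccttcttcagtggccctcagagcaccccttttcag
Gimap9, chr6:48675885-48676120, plus strand: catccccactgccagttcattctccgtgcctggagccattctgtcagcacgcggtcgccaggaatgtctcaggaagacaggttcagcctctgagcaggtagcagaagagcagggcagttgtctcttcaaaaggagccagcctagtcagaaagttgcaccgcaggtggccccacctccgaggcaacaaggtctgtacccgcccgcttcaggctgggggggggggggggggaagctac

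The whole element, AGAACA and TGTTCT with any 3 bases between, was in none of the 9 promoter windows of the 8 members, which reach from 250 bases before to 50 after the start, and in 0.00913% of all 32851 windows in the RefSeq table. The arm AGAACA was in the windows of Gimap4, Gimap5, Gimap6 and Gimap7, against 19.0% of all windows. The windows of Gimap8 and Gimap3 did not hold it. All motifs were searched on both strands. The AP-1 motif TGANTCA was in none of the 9 windows and in 7.81% of all, the RUNX motif TGTGGT in 3 of 9 (Gimap1, Gimap4 and Gimap7) and 16.8%, and a loose NF-kB pattern, GGG and CC with any 5 bases between, in 5 of 9 and 50.8%. The stretches shown also differ in their CG pairs, with 1 in the 202 bases of Gimap8, 3 in the 250 bases of Gimap4, 1 in the 250 bases of Gimap3 and 8 in the 236 bases of Gimap9. These matches describe letters in the windows only.

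Gimap8, a large member with several GTPase domains that is found in developing and resting T and B cells, was read by 1 probe set. Its log2 level stood at 6.80 and 6.13 in control and 7.11 and 7.04 in knockout cells without hormone, and at 5.12 and 4.81 in control and 4.22 and 4.95 in knockout cells given corticosterone. Every treated array lay below every untreated array, with or without the array that stands apart, and the lowest value was that of knockout corticosterone replicate 1. The difference between corticosterone and no treatment was -2.49 log2 units in knockout cells, a level 5.62-fold lower (SE 0.23 with 7 arrays and 0.35 with 8, n = 2 per group). In control cells it was -1.84 (SE 0.28, 7 arrays) or -1.50 (SE 0.35, 8 arrays). These values chose the family, so no test of them is read as a result.

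Gimap4, which has been linked to the death of T cells and to cytokine secretion, was read by a pair of probe sets. On the brighter set its log2 level stood at 7.01 and 6.84 in control and 7.18 and 6.96 in knockout cells without hormone, and at 5.40 and 5.18 in control and 5.43 and 5.50 in knockout cells given corticosterone. The untreated and treated arrays did not overlap in either genotype, and here the array that stands apart lay close to its replicate. The hormone difference was -1.72 (SE 0.17) in control and -1.61 (SE 0.14) in knockout cells with 7 arrays, and -1.63 and -1.61 (SE 0.19 each) with 8. The other set gave -1.28 (SE 0.23) and -1.18 (SE 0.19) with 7 arrays in a fit of all probe sets, so both sets of the gene read lower. The brighter set is of a kind whose probes can match more than 1 transcript.

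Gimap3, a mitochondrial member closely related to Gimap5, was at 7.97 and 5.60 in control and 8.34 and 8.33 in knockout cells without hormone, and at 6.52 and 6.40 in control and 6.51 and 6.98 in knockout cells given corticosterone. The treated knockout arrays lay below the untreated ones. In control cells the picture rests on which untreated array is used, since replicate 1 lay above and replicate 2 below both treated arrays. The hormone difference was -1.59 in knockout cells (SE 0.15 with 7 arrays and 0.73 with 8). In control cells it was -1.51 (SE 0.18) with 7 arrays, -0.33 (SE 0.73) with 8 and 0.86 (SE 0.19) without control untreated replicate 1.

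**Figure D1:**
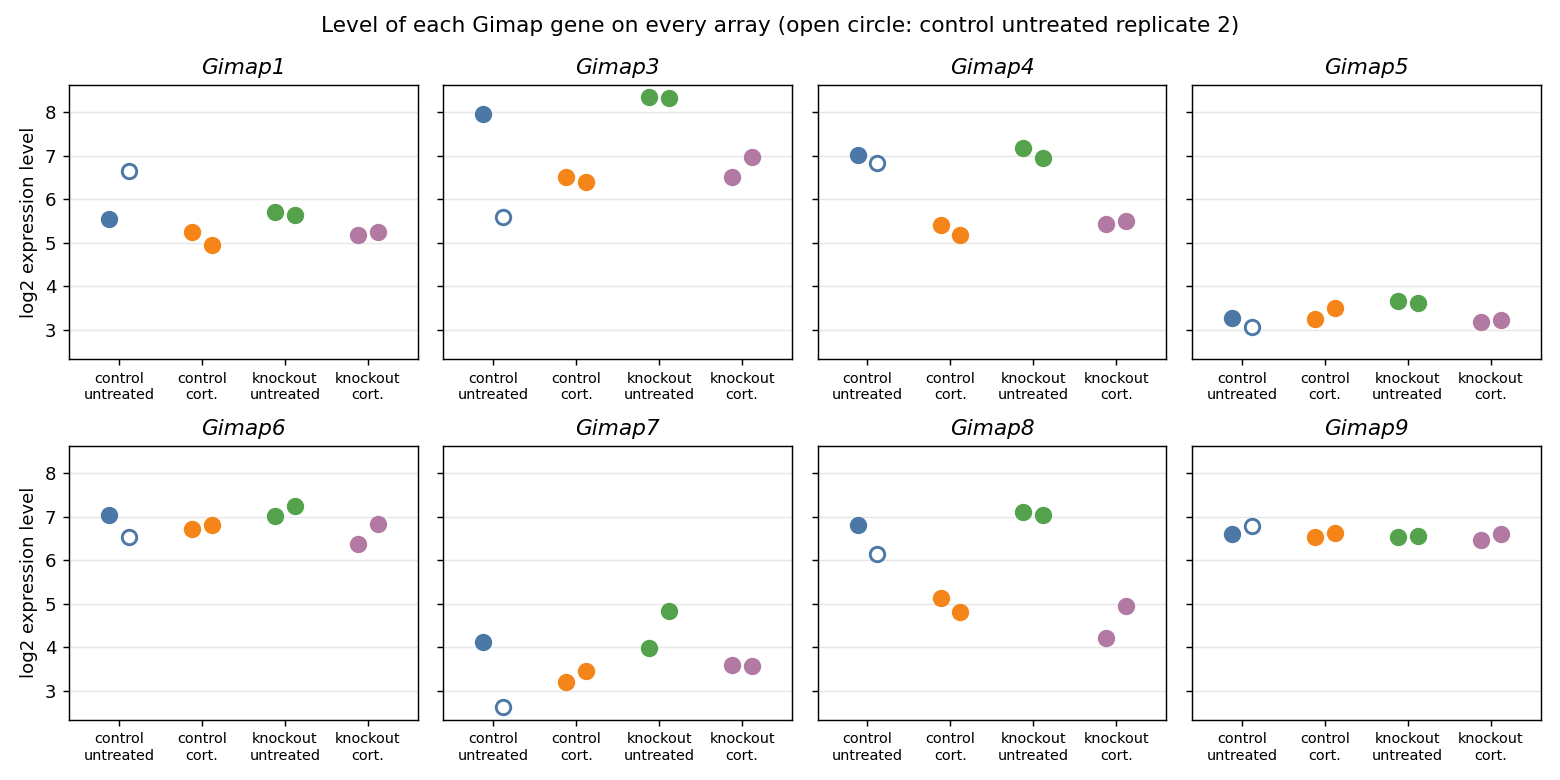
Log2 level (vertical axis) of the brightest probe set of each Gimap gene on each of the 8 arrays, grouped by genotype and treatment; each point is 1 array and the open circle is control untreated replicate 2. Gimap8 and Gimap4 were lower on every corticosterone array than on every untreated array, Gimap3 was so except against the open circle, and Gimap9 stayed between 6.46 and 6.78.

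With 7 arrays the other 5 members differed less than these 3. Gimap1, a Golgi member needed by mature lymphocytes, lay between 4.96 and 5.72 on 7 arrays and at 6.65 on control untreated replicate 2, with hormone differences of -0.45 (SE 0.18) in control and -0.46 (SE 0.15) in knockout cells with 7 arrays and -1.0 (SE 0.37) in control cells with 8. Gimap6, which binds the Atg8 protein Gabarapl2 and takes part in autophagy, lay between 6.36 and 7.23 on all 8 arrays, with differences of -0.27 (SE 0.20) and -0.53 (SE 0.16) with 7 arrays and -0.02 (SE 0.27) in control cells with 8. Gimap7, a GTPase that becomes active on dimerisation, lay between 2.62 and 4.83, with differences of -0.80 (SE 0.29) and -0.83 (SE 0.24). Its lowest value was on control untreated replicate 2, so that with 8 arrays the difference in control cells was -0.05 (SE 0.52).

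Gimap5, a lysosomal member that protects T cells, lay between 3.08 and 3.67, close to the lower quartile of all probe sets (3.49 to 3.62 over the arrays), where the summary of probes by RMA is compressed towards the background. Its differences were 0.10 (SE 0.16) in control and -0.45 (SE 0.13) in knockout cells with 7 arrays. Gimap9 lay between 6.46 and 6.78 and gave -0.02 (SE 0.15) and -0.01 (SE 0.12), with a 95% interval of -0.27 to 0.26 in knockout cells. The dimmer sets of Gimap6 (2.55 to 3.25) and Gimap7 (2.59 to 3.45) were also low on all 8 arrays. For Gimap7 that set gave 0.07 (SE 0.22) in control cells and -0.53 (SE 0.18) in knockout cells, so in control cells its sets lay on opposite sides of 0.

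**Figure D2:**
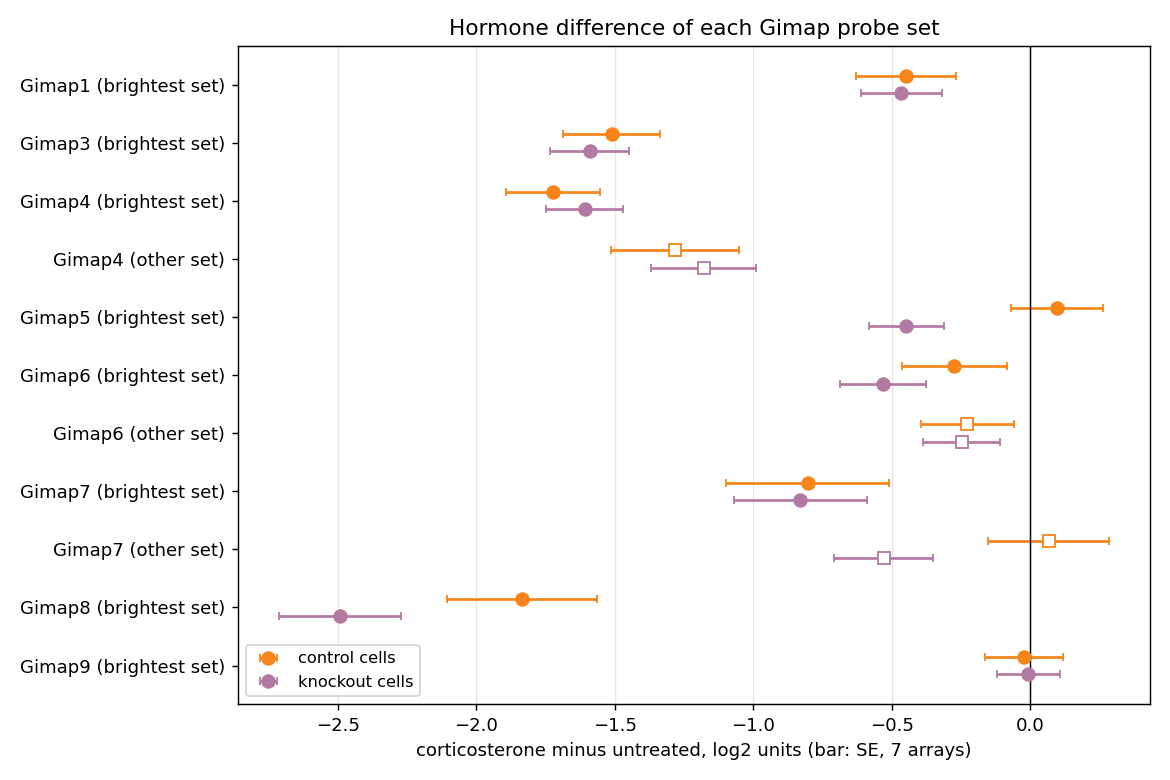
Difference between corticosterone and no treatment in log2 units (horizontal axis) for the 11 Gimap probe sets, from 7 arrays in a fit of all probe sets; orange marks control and purple knockout cells, filled circles the brightest set of a gene, open squares its other set, and bars the SE. Both sets of Gimap4 lay left of -1 in both genotypes, and Gimap9 lay at zero in both.

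By limma with Benjamini-Hochberg adjustment over all genes, Gimap3, Gimap4 and Gimap8 passed the threshold of 0.05 in the direction of lower levels with 7 arrays, which was 3 of 8 members in control cells, where 5.95% of all genes passed lower, and the same 3 of 8 in knockout cells, where 7.95% did. The arrays did not overlap and read lower with hormone for 6 of 8 members in control cells, where 40.5% of all genes did so, and for 7 of 8 in knockout cells, where 28.8% did; with 8 arrays this held for 3 of 8 in control cells, where 20.6% did. No member passed in the direction of higher levels, where 4.85% and 5.75% of all genes did. With 8 arrays 0 of 8 passed in either genotype (3 members each had an unadjusted p under 0.05, where 8.55% and 4.6% of all genes did), where 0.033% and 0.0385% of all genes passed lower and 0.137% and 0.110% higher. Without knockout untreated replicate 1 as well, 5 of 8 passed as lower in knockout cells, with Gimap6 and Gimap7 added, where 16.4% of all genes passed in either direction. With 8 arrays but without control untreated replicate 1, Gimap1, Gimap4 and Gimap8 passed as lower and Gimap3 as higher in control cells, where 64.2% of all genes passed in either direction, and 3 passed as lower in knockout cells, where 13.4% did. The median over the 8 members with 7 arrays was -0.63 in control and -0.68 in knockout cells, against medians of -0.00474 and -0.0188 over all genes. Nothing is read from these counts, since the hormone contrast chose the family, and both hormone contrasts were fitted with a shared variance.

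The genotype differences were not used to choose the family, and they ask whether Gimap levels differed between knockout and control cultures. Cells that do not use Lyz2, such as lymphocytes, keep the receptor gene. The comparison therefore cannot decide whether Gimap levels in such cells depend on the receptor. No member passed in any of these tests. Without hormone 0 of 8 members passed with 7 arrays, where 1.99% of all genes did, and with corticosterone 0 of 8, where 1.63% did. With 8 arrays 0 of 8 members and 0 of all genes passed in both (an unadjusted p under 0.05 was found for 1 member without hormone, where 4.44% of genes had one, and for 0 with it, where 1.26% had one). When control untreated replicate 1 was left out, so that only the odd array represented its group, 6 members passed in the comparison without hormone, Gimap1 as lower in knockout cells and Gimap3, Gimap5, Gimap6, Gimap7 and Gimap8 as higher, where 64.4% of all genes passed.

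The mean of the untreated knockout arrays lay slightly above control untreated replicate 1 for 7 members, all but Gimap9. All of these differences share that 1 control array. For Gimap4, Gimap6 and Gimap7 1 knockout array lay below it, at 6.96, 7.01 and 3.99 against 7.01, 7.03 and 4.13. Gimap3 differed by 0.37 (95% interval -0.04 to 0.77, limma adjusted p = 0.399 with 7 arrays), Gimap8 by 0.27 (-0.35 to 0.90, adjusted p = 0.722) and Gimap4 by 0.06 (-0.34 to 0.45, adjusted p = 0.933). Gimap5 had the smallest p, with a difference of 0.36 (0.0004 to 0.73, adjusted p = 0.348). These intervals leave room for differences of up to about 0.9 log2 units for Gimap8 and 0.45 for Gimap4. With corticosterone, where both groups held 2 arrays, Gimap8 was at 4.59 in knockout and 4.97 in control cells, a difference of -0.38 (-0.89 to 0.13, adjusted p = 0.682 with 7 arrays), and the arrays of the groups overlapped. Gimap4 differed by 0.17 (-0.15 to 0.49, adjusted p = 0.795) and Gimap3 by 0.29 (-0.04 to 0.62, adjusted p = 0.594).

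**Figure D3:**
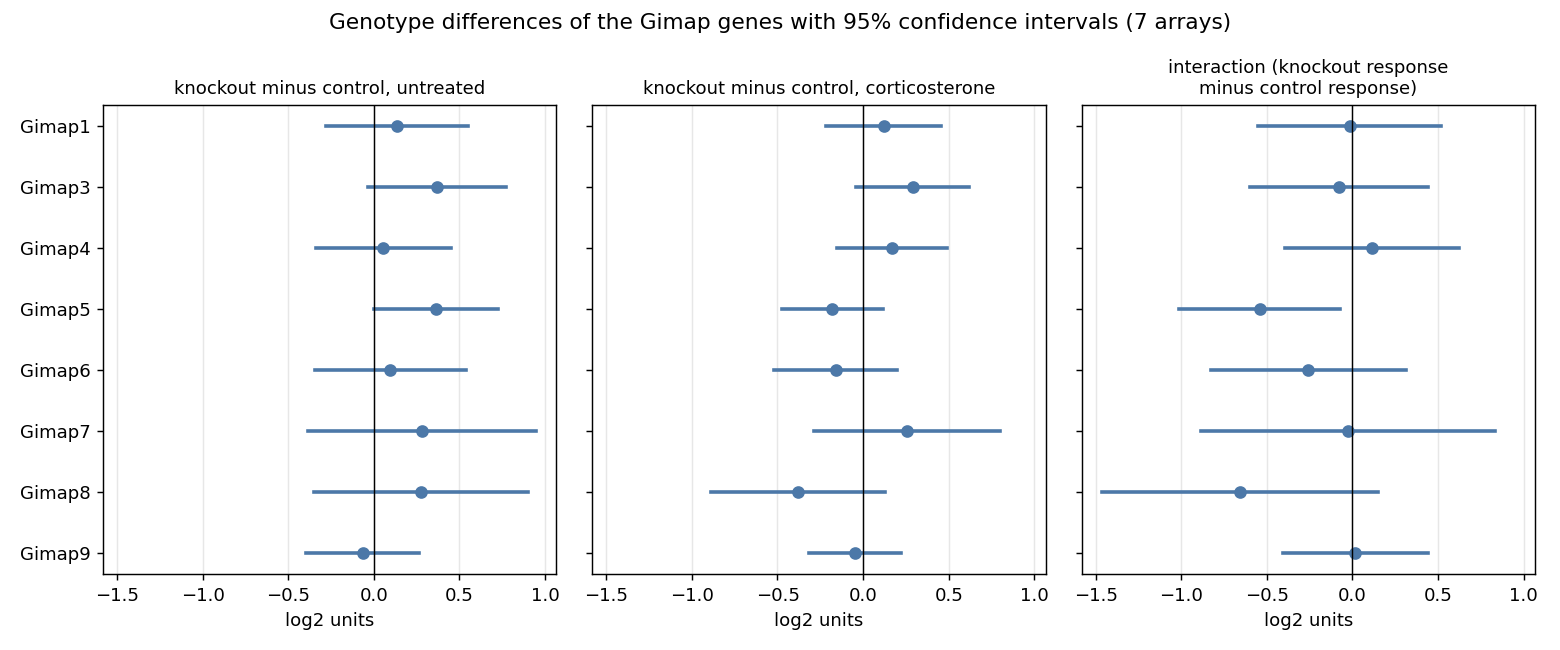
Knockout minus control without hormone (left) and with corticosterone (middle), and the interaction (right, knockout response minus control response), in log2 units for the 8 Gimap genes with 7 arrays; points are differences and lines 95% confidence intervals of limma. All intervals cover 0 except those of Gimap5 without hormone (0.0004 to 0.73) and in the interaction (-1.01 to -0.07), and no adjusted p passed.

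The interaction asks whether the hormone response differed between genotypes. Gimap8 chose the family by its response in both genotypes, so its interaction is not independent of the choice and nothing is read from its p-values. For Gimap8 the response in knockout cells was more negative by -0.66 with 7 arrays (95% interval -1.46 to 0.15, limma adjusted p = 0.892) and by -0.99 with 8 (-2.21 to 0.22, adjusted p = 0.719). A larger response of Gimap8 in knockout cells was not shown, and the interval does not exclude it. For Gimap4 the interaction was 0.12 (-0.39 to 0.62, adjusted p = 0.976) and for Gimap3 -0.08 (-0.60 to 0.44, adjusted p = 0.987) with 7 arrays. Gimap5 gave -0.54 (-1.01 to -0.07, adjusted p = 0.830). In all, 0 of 8 members passed with 7 arrays, where 0.0165% of all genes did, and 0 of 8 with 8 arrays, where 0 of all genes did. In each fit 1 member had an unadjusted p under 0.05, against 5.85% and 1.09% of all genes. With 8 arrays but without control untreated replicate 1, 6 members passed, Gimap1 in the positive and the other 5 in the negative direction, where 58.7% of all genes passed.

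The genes on either side of the cluster are described beside it. The 5 nearest measured protein-coding genes before Gimap8 are Atp6v0e2, Lrrc61, Rarres2, Repin1 and Zfp775, and the 5 after Gimap3 are Tmem176b, Tmem176a, Aoc1, Doxl1 and Gpnmb. With 7 arrays their hormone differences had a median of -0.04 in control and -0.05 in knockout cells. In control cells Lrrc61 differed by -0.34 (SE 0.09), Tmem176b by 0.58 (SE 0.07) and Tmem176a by 0.50 (SE 0.09). In knockout cells the same genes differed by -0.11, 0.13 and 0.03. By limma with 8 arrays 0 of 10 passed in either genotype, where 0.033% and 0.0385% of all genes passed lower and 0.137% and 0.110% higher. So few genes passed there that this count says little of the neighbours. Zfp775, next to Gimap8, differed by -0.34 and -0.37 and did not pass. With 7 arrays none of the 10 neighbours had a hormone difference as large as that of Gimap3, Gimap4 or Gimap8. With 8 arrays this did not hold for Gimap3 in control cells, where it differed by -0.33 and Tmem176a by -0.93. The family was chosen on this contrast and those members for the size of their differences, so no edge is read from this.

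**Figure D4:**
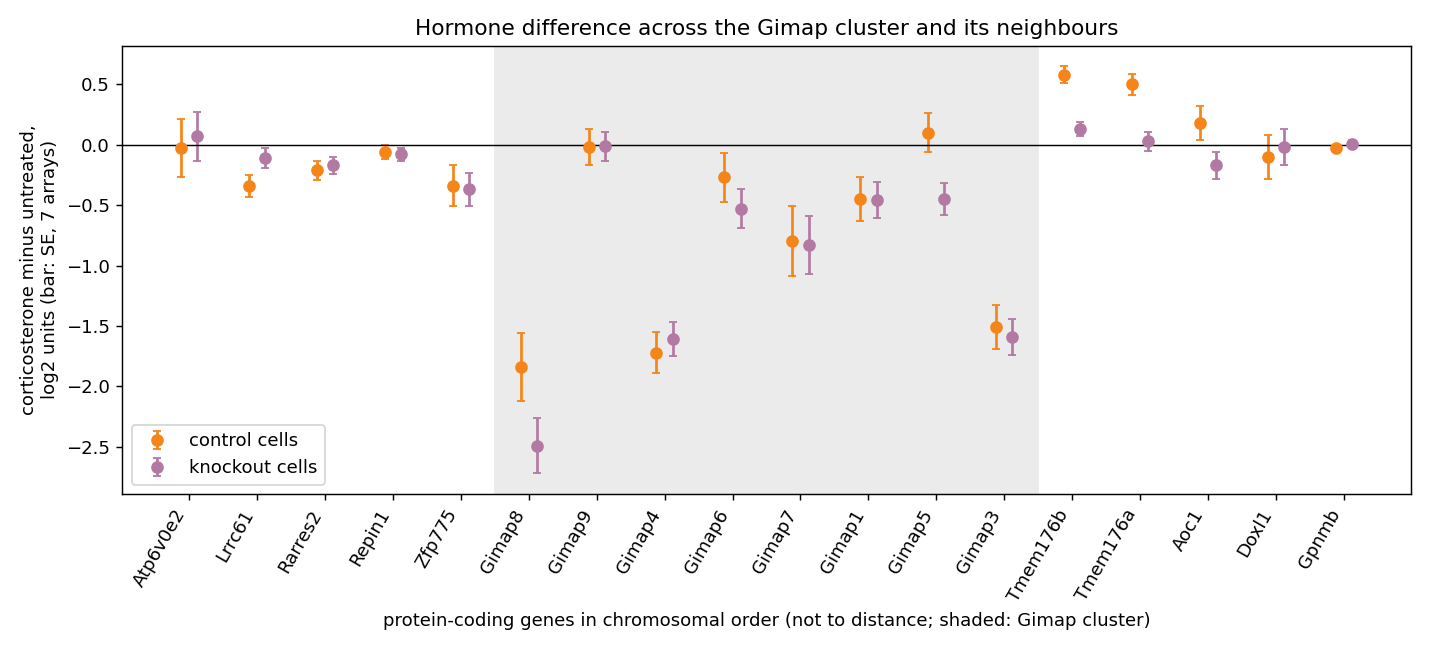
Hormone difference in log2 units (vertical axis, bars the SE, 7 arrays) for the 8 Gimap genes (shaded) and 5 measured protein-coding neighbours on each side, in the order of RefSeq and not to distance. Gimap8 and Gimap3 at the ends and Gimap4 within the cluster lay below -1.5, Gimap9 between Gimap8 and Gimap4 lay at zero, and the lowest neighbour, Zfp775, lay at -0.34 and -0.37.

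Among genes outside the family, those most like Gimap8 over the arrays included several lymphocyte genes. Likeness was Pearson's r with Gimap8 over the 7 arrays, among 1075 genes with a range of at least 1 log2 unit on them. The arrays fall into untreated and treated ones, so r here mostly ranks genes by how evenly they separate these, and 174 genes had r above 0.9. The 10 most alike, with r between 0.978 and 0.992, were Cd3d, a chain of the T cell receptor complex, Iglv1, Igk and an immunoglobulin kappa variable gene, Ltb, the lymphotoxin beta gene, Ms4a1, which encodes the B cell antigen CD20, Rasgrp1, an activator of Ras in T cells, and Kcne3, Vegfa and Gm49249. Over 8 arrays their r was 0.80 to 0.99. Within the family Gimap3 and Gimap4 had r of 0.96 with Gimap8, Gimap1 0.92, Gimap6 0.89, Gimap7 0.79, Gimap5 0.67 and Gimap9 0.13 over the 7 arrays. The sets of immunoglobulin genes can match several related genes.

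Cd3d was at 6.05 and 5.07 in control and 6.26 and 6.52 in knockout cells without hormone, and at 4.91 and 4.64 in control and 4.34 and 4.70 in knockout cells given corticosterone. As with Gimap8, every treated array lay below every untreated one, and knockout corticosterone replicate 1 was the lowest. Cd3d and Ms4a1 were picked for their likeness to Gimap8 over these arrays, so a shared order largely follows from the choice. Ms4a1 was at 8.74 and 7.61 in control and 9.16 and 8.89 in knockout cells without hormone, and at 7.18 and 7.01 in control and 6.99 and 7.13 in knockout cells given corticosterone, again without overlap.

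As lists, markers of T and B cells were lower with hormone, as were Gimap8, Gimap4 and Gimap3, but not every marker was. The 14 measured T cell markers averaged between 5.07 and 5.19 on the corticosterone arrays and between 5.69 and 6.08 on the untreated ones. With 7 arrays their hormone differences had medians of -0.73 in control and -0.87 in knockout cells, against -0.00474 and -0.0188 over all genes. Cd3e differed by -1.49 (SE 0.19) in control and -1.69 (SE 0.15) in knockout cells. The 11 measured B cell markers averaged between 7.0 and 7.07 on the corticosterone arrays and between 7.33 and 7.96 on the untreated ones. The lowest untreated mean, 7.33 on control untreated replicate 2, included Ebf1 at 11.99, which lay between 8.60 and 9.54 on the other arrays. On that array Blk (5.52), Fcmr (6.38) and Cr2 (3.39) lay below all corticosterone arrays, and Cd79a (8.11), Ms4a1 (7.61) and Cd22 (9.94) above them. The separation of the list mean on that array thus rests partly on Ebf1. With 7 arrays the medians of the B cell list were -0.79 and -0.95, and Cd79a differed by -1.04 (SE 0.09) in control and -1.48 (SE 0.07) in knockout cells. With 8 arrays 0 of 14 T cell markers passed in control cells and 2 of 14 (Cd3g and Lat, lower) in knockout cells (limma, adjusted over all genes). In the same fit 0 of 11 B cell markers passed in either, where 0.033% and 0.0385% of all genes passed lower. Pax5, a defining B cell factor, was low on all 8 arrays (3.27 to 3.58), as were Cd4 (4.68 to 5.23) and Zap70 (4.45 to 5.27). Some markers hardly differed with hormone in the fit of 7 arrays. Pax5 gave 0.07 in control and -0.07 in knockout cells, and Cd247, at 6.15 to 7.63 on the 8 arrays, gave -0.41 and 0.02. Cd4 gave -0.43 and -0.25, and Ebf1 -0.26 and -0.47.

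In such bulk samples fewer cells of a type and less RNA per cell cannot be told apart. The part of lymphocyte RNA in the hormone differences of the Gimap genes was not tested. With 7 arrays the lists of other cells had medians smaller in size than those of the T and B cell lists. Some of their single markers differed by more than those medians. The 9 NK cell markers had medians of -0.03 in control and -0.12 in knockout cells with 7 arrays. That list averaged between 3.58 and 3.90 on all 8 arrays, and the defining marker Ncr1 lay between 3.07 and 3.38. Endothelial cells also express Gimap genes. The 12 endothelial markers had medians of 0.03 in control and -0.26 in knockout cells with 7 arrays. Kdr differed by -0.18 and -0.43, Vwf by 0.04 and -0.31, and Pecam1 by -0.11 and -0.53. The mean of the endothelial list was 6.83 on the array that stands apart, against 4.69 to 5.14 on the other 7, and Cdh5 lay between 3.24 and 4.48. The 8 dendritic cell markers had medians of -0.29 in control and -0.38 in knockout cells with 7 arrays. Of these Cd209a differed by -2.27 (SE 0.23) and -2.1 (SE 0.19), and by -1.54 and -2.1 (SE 0.48 each) with 8. Its treated arrays lay below the untreated arrays of the same genotype. With 7 arrays Ccr7 differed by -1.24 and -0.91, Itgax by -0.45 and -0.44, and Flt3 by 0.3 and 0.63. The 9 macrophage markers had medians of 0.13 and 0.17. The 12 mesothelial and fibroblast markers had medians of -0.07 in control and 0.06 in knockout cells with 7 arrays. For the 11 granulocyte and mast cell markers they were 0.14 and -0.03. With 8 arrays none of these markers passed except Mertk, a macrophage receptor for dying cells, which rose in each genotype. The mesothelial and fibroblast list averaged 8.95 on the array that stands apart and between 6.92 and 7.37 on the other 7.

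**Figure D5:**
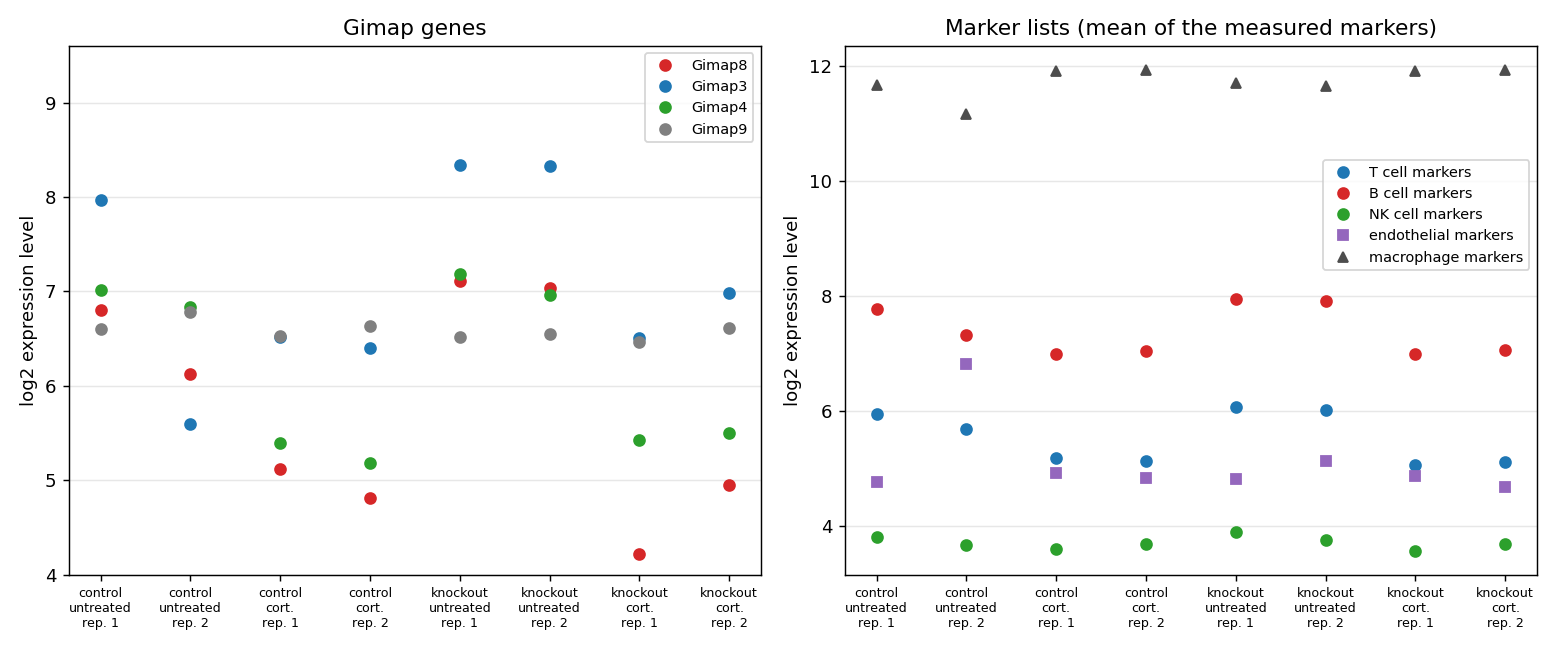
Log2 level (vertical axes) on each of the 8 arrays of Gimap8, Gimap3, Gimap4 and Gimap9 (left, 1 point per gene and array) and the mean of the measured markers of 5 cell types (right, 1 point per list and array). The T cell list lay between 5.07 and 5.19 and the B cell list between 7.0 and 7.07 on the corticosterone arrays, below all untreated arrays, while the macrophage list lay above 11 on all 8. On control untreated replicate 2 the B cell mean includes Ebf1 at 11.99, far above its level on the other arrays.

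The T and B cell markers were also compared between genotypes. With 7 arrays their median differences, knockout minus control, were 0.07 and 0.27 without hormone and -0.05 and -0.03 with corticosterone. Cd79a differed by 0.51 (SE 0.09) without hormone, against 1 control array, and 0.07 (SE 0.07) with it. Its untreated levels were 9.42 and 9.43 in knockout and 8.92 and 8.11 in control cells, so both knockout arrays lay above both control arrays. With 8 arrays 0 of 14 T cell and 0 of 11 B cell markers passed in both comparisons. In that fit Cd79a differed by 0.91 without hormone (SE 0.27, limma adjusted p = 0.486). In these comparisons with 8 arrays 0 of 8 Gimap members and 0 of all genes passed.

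Genes that work with Gimap proteins passed in both directions. Of 14 measured partners from the Bcl2 family, the Atg8 proteins and kinases, 1 fell and 2 rose in control cells, and 1 fell and 3 rose in knockout cells with 7 arrays, with medians of 0.04 and 0.06; 10.8% and 13.7% of all genes passed in either direction. Bcl2, the survival factor that acts beside Gimap3 and Gimap5, fell by 0.39 (SE 0.07, limma adjusted p = 0.00486) in control and fell by 0.43 (SE 0.05, adjusted p = 0.000636). Bcl2l11, which encodes the death factor Bim, rose by 0.42 (SE 0.04, adjusted p = 8.64e-05) in control and by 0.19 (SE 0.03, adjusted p = 0.00269) in knockout cells. Bcl2l1, another survival factor, differed by 0.09 in each and did not pass, and Gabarapl2, the partner of Gimap6, by 0.23 (adjusted p = 0.0655) and 0.13 (adjusted p = 0.196). With 8 arrays 0 of 14 passed in either genotype.

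The 12 measured genes of lymphocyte survival and the resting state had medians of -0.12 in control and -0.15 in knockout cells with 7 arrays. Over all genes the medians were -0.00474 and -0.0188. Klf2, a factor that keeps T cells quiescent, fell by 1.01 (SE 0.14, limma adjusted p = 0.00164) in control and fell by 1.22 (SE 0.12, adjusted p = 0.000109). S1pr1, a target of Klf2 that lets lymphocytes leave tissues, differed by -0.22 (adjusted p = 0.322) in control cells and fell by 0.37 (SE 0.10, adjusted p = 0.0310) in knockout cells. Nr3c1, the glucocorticoid receptor gene and not on this list, differed by -0.14 (adjusted p = 0.150) in control cells and fell by 0.19 (SE 0.04, adjusted p = 0.0149) in knockout cells. With 8 arrays Nr3c1 did not pass (adjusted p = 0.571 in control and 1 in knockout cells). Il7r, the interleukin 7 receptor gene, was between 12.61 and 13.01 on all 8 arrays and rose by 0.13 (SE 0.02, adjusted p = 0.00503) in knockout cells. With 8 arrays 0 of 12 passed in either genotype.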

How the data were processed

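The authors deposited log2 values for each probe set of Affymetrix mouse arrays, made with RMA in R 2.7, per the submitters' processing notes. RMA corrects background, equalises the arrays and summarises probes, so values are relative within an array. The sources used here do not name the genome build. Of 45101 probe sets 64 are controls, 34945 of the rest have 1 gene in the platform annotation, 932 several and 9160 are not named here. Symbols were updated through identifiers to the RefSeq table of GRCm38.p6 (34741 matched), used for names and gene order. Each gene was represented by its brightest probe set on average. limma 3.58.1 in R 4.3.3 was fitted to 18193 genes with 1 coefficient per group and a variance trend, and also to all 45037 probe sets that are not controls. The fit of 8 arrays left 4 residual degrees of freedom, that of 7 left 3. The script was tested on simulated data.

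Members and lists were chosen with earlier results of these data known. Genes named are the 8 members, the 10 genes most like Gimap8, 5 neighbours on each side, and from the lists Cd3e, Cd3d, Lck, Ncr1, Cd79a, Ms4a1, Pecam1, Cdh5, Csf1r, Lyz2, Bcl2, Bcl2l1, Bax, Gabarapl2, Il7r, Klf2 and S1pr1, and Nr3c2 and Nr3c1; Lck and Bax are not analysed here. Pax5, Cd4, Zap70, Cd3g, Lat, Cd247, Ebf1, Blk, Fcmr, Cr2, Cd22, Kdr, Vwf, Cd209a, Ccr7, Itgax, Flt3, Mertk and Bcl2l11 were chosen after their values were seen. Alternatives left out each array, the variance trend or low genes, or used array weights, the mean of probe sets, median centring, only the groups compared, or the replicate number as a block. Replicate numbers did not pair the arrays: deviations of arrays with the same number correlated between -0.292 and 0.397 over the 6 pairs of groups.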

Additional observations from a re-analysis of the deposited data

How the results depend on the processing

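With 8 arrays no member was called in the 5 contrasts, and leaving out each array gave 0 to 4 members in the hormone contrast of control cells, 0 to 3 in that of knockout cells, and 0 to 6 in the genotype contrast without hormone and in the interaction; counts above 0 came only from leaving out a control untreated array. With 8 arrays 1 member (Gimap4) was called in each hormone contrast without the variance trend, and in knockout cells 5 with array weights and 3 from only the groups compared. With 7 arrays the 3 members of the hormone contrast of knockout cells became 3 to 5 on leaving out arrays, 5 with the mean of probe sets and 5 with the replicate block; in control cells they became 3 to 4 on leaving out arrays and 4 with 5 arrays, Gimap7 being added; the block changed the count in no other contrast, with 0 or 3 members as without it. Gimap3 in control cells, at -0.33 on 8 arrays, turned to 0.86 without control untreated replicate 1 and was -1.51 without replicate 2. The filter at a mean of 6 leaves Gimap1, Gimap5, Gimap7 and Gimap8 untested, so with 7 arrays 2 members (Gimap3 and Gimap4) were called in control and 3 (with Gimap6) in knockout cells. With 7 arrays no alternative called a member in the genotype contrasts or the interaction. Leaving out control untreated replicate 1 from the 7 arrays gives no value for contrasts with that group. Signal over background was not given per probe set, which limits what can be said of Gimap5 and Gimap7.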

Other observations

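Next to Gimap3 lie Tmem176b and Tmem176a, a pair of membrane protein genes of myeloid cells, whose levels differed by genotype while those of the Gimap genes did not pass. Tmem176b was at 8.20 and 9.89 in control and 9.75 and 9.71 in knockout cells without hormone, and at 8.84 and 8.72 in control and 9.85 and 9.87 in knockout cells given corticosterone. Apart from control untreated replicate 2, every knockout array lay above every control array. With 7 arrays Tmem176b was higher in knockout cells by 1.53 without hormone (limma adjusted p = 7.98e-06) and by 1.08 with it (adjusted p = 1.54e-05), and Tmem176a by 1.46 (adjusted p = 5.98e-05) and 0.98 (adjusted p = 0.000176). With 8 arrays none of these differences passed, at 0.69, 1.08, 0.02 and 0.98 in the same order. No test set the genotype difference of these genes against that of the Gimap genes.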
